A study of Homo sapiens with 16 samples.

Results

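The genes described here encode the subunits of the oxidative phosphorylation complexes, followed at 8 time points in K562 cells treated with phorbol 12-myristate 13-acetate (PMA). Protein-coding genes were taken by symbol: the NDUFA, NDUFB, NDUFC, NDUFS and NDUFV genes of complex I without the assembly factors, SDHA to SDHD of complex II, the UQCR genes of complex III, the COX genes of complex IV numbered from COX4 to COX8 (NDUFA4 and NDUFA4L2 were counted with this complex), the ATP5 genes of complex V, and the 13 genes of the mitochondrial genome. The rule found 103 of the 35052 genes: 90 nuclear genes (38, 4, 9, 19 and 20 of complexes I to V) and 13 mitochondrially encoded genes. The symbols also take in the readthrough genes ATP5MF-PTCD1 and NDUFC2-KCTD14, the copy UQCRHL and the inhibitor ATP5IF1. All of these are counted with the nuclear subunits. K562 is an established human leukaemia line, used here as the wild type, and PMA is a phorbol ester that activates protein kinase C. The 0 h libraries were made from untreated cells, and all others from cells given 25 nM PMA, for 0.5, 1.5 or 3 h, for 6 h, or for 24, 48 or 72 h. Medium was renewed after 24 h and again after 48 h. Total RNA was depleted of ribosomal RNA, and 2 libraries were made at each time, 16 in all.

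Oxidative phosphorylation passes electrons from NADH (complex I) and succinate (complex II) through ubiquinone, complex III and cytochrome c to oxygen at complex IV, and the proton gradient built on the way drives the ATP synthase, complex V. Complex II is made wholly from nuclear genes, whereas the other 4 complexes combine nuclear subunits with core subunits that mitochondria transcribe from their own genome as long polycistronic RNAs from both strands. The nuclear genes lie on many chromosomes, and promoters of several of them are known to carry sites of the transcription factors NRF1, of the GABP (ETS) family and of YY1.

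Library totals ran from 27285773 to 54056289 estimated reads. Of the 103 genes, 99 passed the low-count filter (86 nuclear, 13 mitochondrial), and COX4I2, COX6A2, COX7A1 and COX8C, tissue isoforms of complex IV, had at most 4 reads in any library. The second 0 h library stood apart: the salmon tables gave it a length minus effective length of 199 nt, against 229 to 248 nt in the other second replicates and 210 to 221 nt in the first ones, so counts against 0 h, and the genes most affected, are given with and without it. Across the 86 nuclear subunits, GC content and the log2 fold change against 0 h had a Pearson r of -0.74 at 0.5 h, -0.41 at 24 h and -0.59 at 72 h, as a description across genes that share libraries. Erythroid markers summed to 2265 to 5443 TPM and were present throughout, and the megakaryocyte-lineage integrin gene ITGB3 went from a mean of 0.661 TPM at 0 h to 457 TPM at 72 h, while GP1BA and PF4 stayed near 0. The 10 markers of other cell types (T cell, B cell, fibroblast, epithelial and hepatocyte) summed to 90.8 and 95.5 TPM at 0 h and to 158 and 204 TPM at 72 h, with KRT5, MS4A1 and ALB at or near 0 and CD3D, EPCAM and COL1A1 detected, and their part in the results was not tested. Nothing in the labels says whether the 2 libraries of a time point came from separate cultures, so p-values measure only the spread between these libraries. In bulk RNA, fewer cells of a type and less RNA per cell cannot be told apart.

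Promoters of 3 members are shown because these genes moved in different directions within complexes II and V. The windows lie upstream of the start sites of RefSeq (GRCh38.p14) and end before the GENCODE start, with matches to the motifs of NRF1 (GCGCNTGCG) and of ETS factors (CCGGAAGT), on either strand, in capitals. SDHA is at chr5:218070-218240 on the plus strand, SDHD at chr11:112086623-112086772 on the plus strand and ATP5MK at chr10:103396493-103396725 on the minus strand.
SDHA: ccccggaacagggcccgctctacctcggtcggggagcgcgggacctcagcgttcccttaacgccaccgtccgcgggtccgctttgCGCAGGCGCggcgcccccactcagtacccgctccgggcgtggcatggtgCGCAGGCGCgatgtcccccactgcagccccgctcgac
SDHD: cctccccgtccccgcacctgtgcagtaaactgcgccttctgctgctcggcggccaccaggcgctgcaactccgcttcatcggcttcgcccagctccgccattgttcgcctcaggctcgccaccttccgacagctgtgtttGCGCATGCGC
ATP5MK: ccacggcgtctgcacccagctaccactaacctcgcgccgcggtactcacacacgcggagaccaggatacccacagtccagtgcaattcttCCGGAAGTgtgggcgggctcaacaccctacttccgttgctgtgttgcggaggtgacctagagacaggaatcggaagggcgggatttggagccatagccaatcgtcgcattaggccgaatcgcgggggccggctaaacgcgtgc
Of the 90 nuclear members, 71 were matched to a RefSeq promoter. Within the 250 bases before the start, 21 of the 71 (29.6%) held the NRF1 motif, against 6.54% of all 35116 promoters, and 10 (14.1%) held the ETS motif, against 3.42%. SDHA held the NRF1 motif 4 times in its 250 bases, of which 2 lie in the stretch shown. In SDHD overlapping NRF1 matches on both strands form a single run of capitals, and an ETS match lies in the part of its 250 bases not shown. The YY1 motif (AAGATGGCG) was in 1 of the 71 (1.41%), against 0.652% of all promoters. Of the 33 matched members called lower at 6 h, 30.3% held the NRF1 motif, and of the 38 others 28.9% did. At 72 h it was in 26.3% of those called lower and 33.3% of the rest. A match describes the letters only and says nothing about binding.

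The mitochondrial gene MT-ATP8 (chrM:8366-8572, plus strand, 207 nt, GRCh38) is shown because its last 46 bases, in capitals, are also the first of MT-ATP6, so reads there could be given to either.
MT-ATP8: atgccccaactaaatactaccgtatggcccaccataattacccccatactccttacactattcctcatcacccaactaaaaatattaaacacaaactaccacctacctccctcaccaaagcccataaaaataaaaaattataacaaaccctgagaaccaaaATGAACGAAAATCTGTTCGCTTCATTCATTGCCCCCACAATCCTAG
MT-ND4L shares 7 bases with MT-ND4 in the same way. MT-ND6 is the only protein gene on the light strand, and the strand setting of the counting is not given in the sources used here.

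The 2 genomes were read first as summed reads. The 13 mitochondrial genes took 2.88 and 2.30% of the reads at 0 h, 3.22 and 2.32% at 0.5 h, 3.50 and 4.06% at 1.5 h, 3.29 and 3.19% at 3 h, 2.53 and 4.45% at 6 h, 2.34 and 3.74% at 24 h, 1.55 and 2.62% at 48 h, then 2.89 and 2.86% at 72 h. The 90 nuclear genes took 0.991 and 1.1% at 0 h, 0.939 and 0.951% at 0.5 h, 0.888 and 0.879% at 1.5 h, 0.912 and 0.850% at 3 h, 0.704 and 0.674% at 6 h, 0.765 and 0.757% at 24 h, 0.794 and 0.768% at 48 h, then 0.746 and 0.706% at 72 h. As a percent of reads, the nuclear share was lower in all 14 treated libraries than in both 0 h libraries. Its lowest values were those of 6 h. This order did not hold for summed reads relative to the scaled size of the library (CPM). The nuclear sum was then 8699 and 10004 CPM at 0 h and 10392 and 8769 at 3 h. It was 7944 and 7888 CPM at 6 h and 7651 and 6823 at 72 h. The first 3 h library thus lay above both 0 h libraries, and the lowest CPM values were those of 72 h. The 2 mitochondrial shares of a time point lay farthest apart at 6 h and close together at 3 and 72 h.

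**Figure D1:**
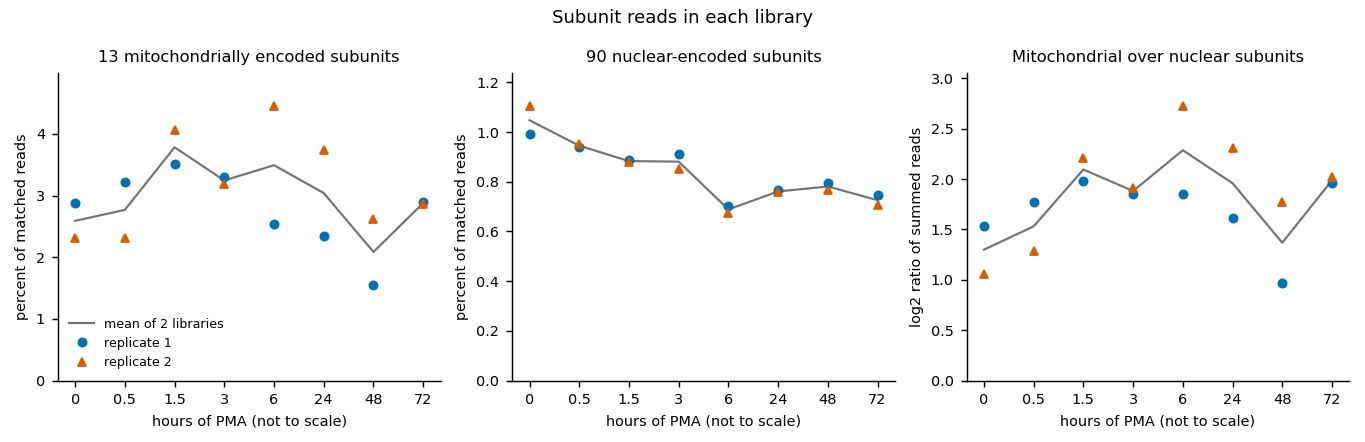
Percent of matched reads from the 13 mitochondrially encoded subunits (left) and the 90 nuclear-encoded subunits (middle), and the log2 ratio of the summed reads (right), against hours of PMA on an axis not to scale. Circles are replicate 1, triangles replicate 2 and the line their mean. The nuclear percent of reads reaches its lowest values at 6 h, whereas the summed nuclear CPM, not drawn, is lowest at 72 h. Of the 2 mitochondrial values of 6 h, 2.53% lies between the 0 h values and 4.45% above both.

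The log2 ratio of mitochondrial to nuclear subunit reads does not depend on library scaling. It was 1.54 and 1.06 at 0 h, 1.78 and 1.28 at 0.5 h, 1.98 and 2.21 at 1.5 h, 1.85 and 1.91 at 3 h, 1.85 and 2.72 at 6 h, 1.61 and 2.30 at 24 h, 0.96 and 1.77 at 48 h, then 1.96 and 2.02 at 72 h. At 1.5, 3, 6, 24 and 72 h both libraries lay above both 0 h libraries, and at 0.5 and 48 h the groups overlapped. For 1.5, 3, 6, 24, 48 and 72 h, in that order, the mean change from 0 h was 0.80, 0.58, 0.99, 0.66, 0.07 and 0.69. The pooled SD between libraries of a time point was 0.39, and no p is given for such a sum. Without the second 0 h library these changes were 0.56, 0.34, 0.75, 0.42, -0.17 and 0.45. At 6 h the change was 1.42 without the first 6 h library and 0.55 without the second, and at 48 h it was 0.47 and -0.33 without the first and the second 48 h library. Within the first replicates alone the ratio ran from 0.96 at 48 h to 1.98 at 1.5 h, and within the second from 1.06 at 0 h to 2.72 at 6 h.

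Gene by gene, 65 of 86 nuclear subunits (75.6%) and 3 of 13 mitochondrial ones (23.1%, MT-ND2, MT-ND6 and MT-CO3) differed at some time by edgeR's quasi-likelihood test, where 82.9% of all genes tested did. Calls rest on p-values adjusted by the Benjamini-Hochberg method over all genes of 1 comparison, with 0.05 as the threshold. The 65 comprised 24 genes of complex I, all 4 of complex II, 8 of complex III, 12 of complex IV and 17 of complex V.

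Against 0 h, nuclear subunits moved in both directions at 3 h and mostly down from 6 h on. Here and below, shares of all genes called are those of the main fit of 16 libraries. None is given for fits without a library or with other settings, so the counts of those fits have no background beside them. At 0.5 h none was called by edgeR in either direction (0.171% of all genes were), 24 had an unadjusted p under 0.05, and DESeq2 called 2 lower. Without the first 0 h library 27 were lower at 0.5 h and 31 at 1.5 h. At 1.5 h 9 were lower and none higher (background 8.05% lower and 9.05% higher), and without the second 0 h library none was called. Without the first or the second 1.5 h library 1 and 0 were lower. At 3 h 10 were higher and 9 lower (21.5% higher, 20.5% lower), or 8 and 3 without that library. Without the first 0 h library, the first 3 h library or the second 3 h library 20, 15 and 2 were lower at 3 h. At 6 h 39 of 86 were lower and 5 higher (29.4% lower, 27.8% higher), with a median log2 fold change of -0.33, and 30 lower and 9 higher without that library. At 24 h 28 were lower and 10 higher (26.6% lower, 31.7% higher), or 20 and 12 without it. At 48 h 35 were lower and 5 higher (24.1% lower, 30.2% higher), or 19 and 6 without it. At 72 h 45 were lower and 4 higher (26.9% lower, 31.7% higher), with a median of -0.38, or 29 and 3 with a median of -0.24 without it. The median over all genes tested was within 0.03 of 0 at each time. With libraries scaled to total counts, that median was -0.35 at 6 h and -0.19 at 72 h. Nuclear subunits called lower and higher then numbered 69 and 2 at 6 h, 54 and 3 at 24 h, 51 and 2 at 48 h, then 58 and 2 at 72 h. With trends in GC content and length removed, the counts were 35 lower and 4 higher at 6 h, 32 and 19 at 24 h, 26 and 21 at 48 h, then 28 and 25 at 72 h, so the predominance of lower calls at 48 and 72 h depends on this setting.

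**Figure D2:**
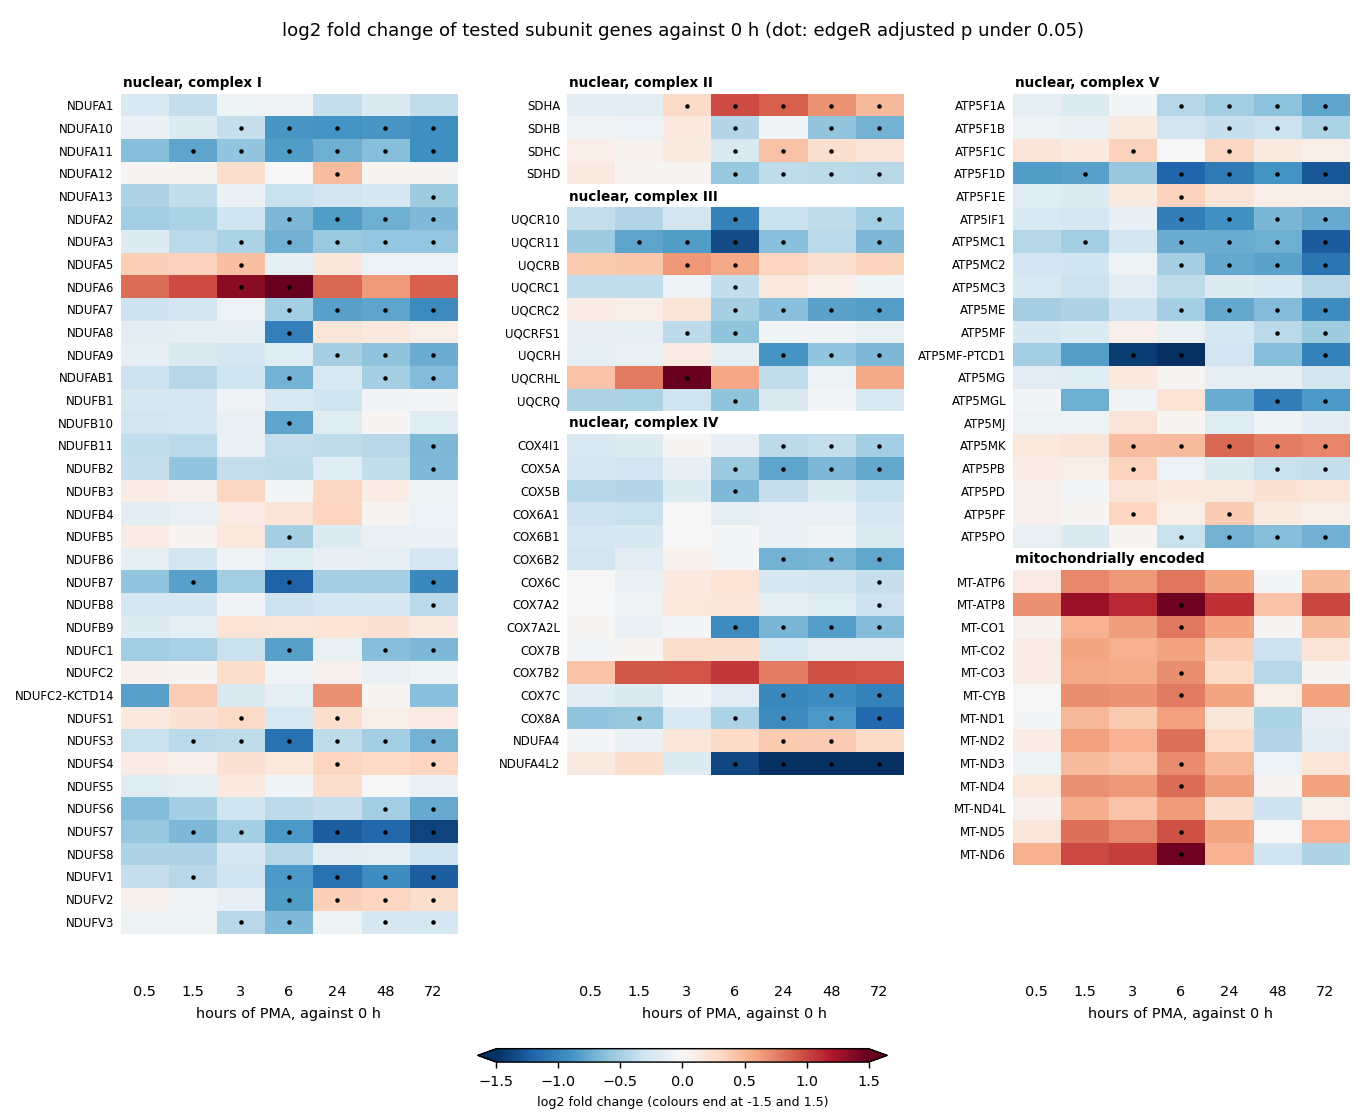
log2 fold change against 0 h of the tested subunit genes (rows, by complex, with 1 left out) at 0.5 to 72 h of PMA (columns), from the edgeR fit of 16 libraries. Blue is lower, red is higher, colours end at -1.5 and 1.5, and a dot marks an adjusted p under 0.05. In complex II SDHA is red from 3 h while SDHB and SDHD are blue at 6 h, and 8 of the 13 mitochondrial genes carry a dot at 6 h and none at other times.

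The steps between neighbouring treated time points do not compare with the 0 h libraries. From 0.5 to 1.5 h no nuclear subunit was called by edgeR or, in the same comparison, any mitochondrial one (5.77% of all genes were called), and 2 nuclear subunits had an unadjusted p under 0.05. From 1.5 to 3 h 5 nuclear subunits rose and 1 fell (25.1% in either direction). From 3 to 6 h 30 nuclear subunits fell and 1, SDHA, rose (22.1% of all genes fell, 19.0% rose). Without the first 3 h library 19 fell, and without the first or the second 6 h library 17 and 18. From 6 to 24 h 25 rose and 11 fell (30.8% rose, 25.8% fell), and without the first 6 h library or the second 24 h library 13 rose. From 24 to 48 h 1 rose and 3 fell (15.0% in either direction), and from 48 to 72 h none was called (1.47%), with 4 at an unadjusted p under 0.05. Of the 86, 14 fell from 3 to 6 h and then rose to 24 h (12.2% of all genes did), among them NDUFS1, NDUFS3, NDUFV2, NDUFV3, NDUFA8, NDUFB5, NDUFB7 and NDUFB10 of complex I, SDHB and SDHC of complex II, UQCR10 of complex III, COX7A2L of complex IV and ATP5F1C of complex V. Without the first 6 h library 7 genes did so, without the second 10, and with libraries scaled to total counts 25.

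Complex I held 9 of these 14 genes. The background over all genes was 22.1% falling and 19.0% rising from 3 to 6 h, and 25.8% falling and 30.8% rising from 6 to 24 h. Of its 38 nuclear subunits 12 fell and none rose from 3 to 6 h, and from 6 to 24 h 14 rose and none fell, or 7 and none without the first 6 h library. NDUFS3, a core subunit of the arm that hands electrons to ubiquinone and also picked after its values were seen, measured 72.2 and 97.4 CPM at 0 h (CPM are reads relative to the scaled size of the library), 69.0 and 65.3 at 0.5 h, 66.6 and 61.2 at 1.5 h, 70.2 and 59.8 at 3 h, 40.6 and 37.5 at 6 h, 63.7 and 66.2 at 24 h, 59.6 and 59.1 at 48 h, then 55.7 and 48.2 at 72 h. Both 6 h libraries lay below the other 14. It fell by 0.74 on the log2 scale from 3 to 6 h (SE 0.13, edgeR adjusted p = 0.000474) and rose by 0.73 to 24 h (SE 0.13, edgeR adjusted p = 0.000346). NDUFA8, an accessory subunit named after its values were seen, measured 45.8 and 53.1 CPM at 0 h, 47.9 and 42.3 at 3 h, 24.5 and 24.0 at 6 h, 53.4 and 58.2 at 24 h, then 54.8 and 50.9 at 72 h. It too was lowest in both 6 h libraries, with a step of -0.90 from 3 h (SE 0.10, edgeR adjusted p = 9.38e-06) and of 1.2 to 24 h (SE 0.10, edgeR adjusted p = 3.94e-07). NDUFV2, an iron-sulphur subunit of the NADH-oxidising module, measured 137 and 143 CPM at 0 h, 132 and 126 at 3 h, 79.1 and 77.5 at 6 h, 176 and 183 at 24 h, 176 and 174 at 48 h, then 179 and 153 at 72 h. It fell at 6 h and stood above 0 h at 24 h (0.36, SE 0.09, edgeR adjusted p = 0.00442). At 72 h its 0.24 (edgeR adjusted p = 0.0362) was no longer called without the second 0 h library (0.28).

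**Figure D3:**
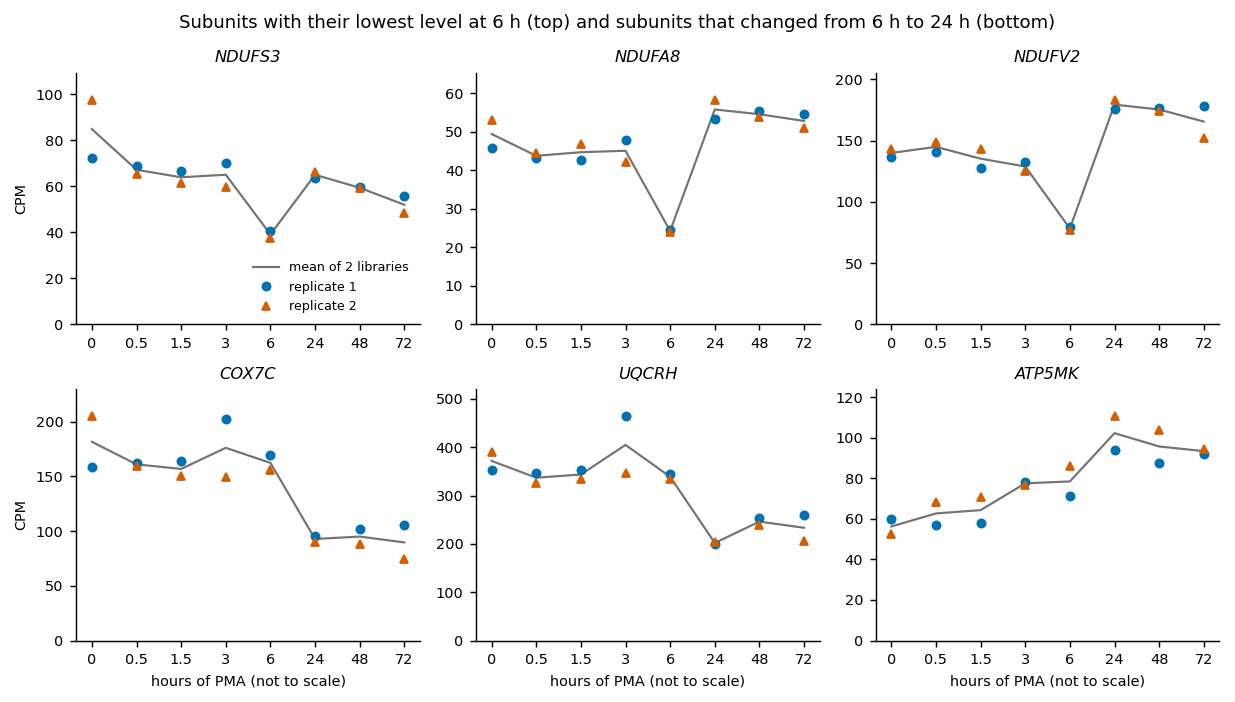
CPM of 6 nuclear subunits in each library against hours of PMA on an axis not to scale, with circles for replicate 1, triangles for replicate 2 and the line for their mean. NDUFS3, NDUFA8 and NDUFV2 are lowest in both 6 h libraries, COX7C and UQCRH drop between 6 and 24 h, and ATP5MK is highest at 24 h.

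Other core subunits of complex I fell without a return. NDUFV1, which binds NADH, measured 150 and 184 CPM at 0 h, 160 and 113 at 3 h, 95.4 and 88.4 at 6 h, 76.8 and 77.8 at 24 h, 89.8 and 85.9 at 48 h, then 72.3 and 69.2 at 72 h. NDUFS7, an iron-sulphur subunit next to the ubiquinone site, measured 77.6 and 100 CPM at 0 h, 70.0 and 55.4 at 3 h, 50.5 and 47.8 at 6 h, 36.6 and 39.2 at 24 h, 36.9 and 42.0 at 48 h, then 27.8 and 40.3 at 72 h. At 24, 48 and 72 h every library of both genes was below every 0 h library. At 72 h the log2 fold change of NDUFV1 was -1.24 (SE 0.14, edgeR adjusted p = 3.63e-06). That of NDUFS7 was -1.39 (SE 0.17, edgeR adjusted p = 7.48e-06). Without the second 0 h library they were -1.09 and -1.19, still called. By 72 h 18 complex I subunits were lower and 2 higher, or 10 and 0 without the second 0 h library. The 2 higher ones were NDUFV2 and NDUFS4, an accessory subunit of the same module, at 0.32 (SE 0.13, edgeR adjusted p = 0.0465). The background at 72 h was 26.9% of all genes lower and 31.7% higher. Without the second 0 h library NDUFV2 (0.28) and NDUFS4 (0.36) were not called. NDUFA6 had the largest rise of the nuclear members at 6 h (1.56, SE 0.40, edgeR adjusted p = 0.00377), or 0.92 without the second 0 h library, but its reads were given to a short transcript that is not its main one, and its level is uncertain.

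In complex II the 4 subunits went different ways. SDHA, the flavoprotein that oxidises succinate (chr5:218241-256700), measured 180 and 200 CPM at 0 h, 170 and 169 at 0.5 h, 169 and 168 at 1.5 h, 237 and 225 at 3 h, 375 and 375 at 6 h, 348 and 356 at 24 h, 301 and 307 at 48 h, then 273 and 257 at 72 h. All 10 libraries from 3 h on exceeded both 0 h libraries. The log2 fold change was 0.98 at 6 h (SE 0.08, edgeR adjusted p = 1.62e-07), 0.89 at 24 h and 0.48 at 72 h (edgeR adjusted p = 0.000152), and 1.06, 0.97 and 0.56 without the second 0 h library. The gene has near-identical pseudogene copies, SDHAP1 to SDHAP3, which the counting could confuse with it. SDHA held 72.2 to 86.8% of the reads of this family, and the copies together stayed between 42.2 and 76.4 CPM, so the family as a whole went from 249 and 274 CPM at 0 h to 451 and 450 CPM at 6 h.

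SDHB, the iron-sulphur subunit that takes the electrons from SDHA (chr1:17018722-17054170), measured 110 and 133 CPM at 0 h, 115 and 118 at 0.5 h, 109 and 120 at 1.5 h, 146 and 123 at 3 h, 89.0 and 90.1 at 6 h, 111 and 123 at 24 h, 81.1 and 79.8 at 48 h, then 76.3 and 71.6 at 72 h. It dropped at 6 h, stood within the 0 h range at 24 h and was below it again at 48 and 72 h. Its log2 fold change was -0.44 at 6 h (SE 0.11, edgeR adjusted p = 0.00342). By 72 h it was -0.71 (SE 0.11, edgeR adjusted p = 7.26e-05), or -0.29 and -0.57, both called, without the second 0 h library. SDHC, a membrane anchor (chr1:161314257-161375340), measured 114 and 110 CPM at 0 h, 117 and 122 at 0.5 h, 116 and 117 at 1.5 h, 127 and 119 at 3 h, 94.0 and 97.5 at 6 h, 153 and 152 at 24 h, 133 and 133 at 48 h, then 137 and 120 at 72 h. It fell at 6 h (-0.23, SE 0.08, edgeR adjusted p = 0.0287). Its 24 h level exceeded that of 0 h (0.44, SE 0.08, edgeR adjusted p = 0.000407). SDHD, the other anchor (chr11:112086773-112120013), measured 108 and 88.0 CPM at 0 h, 110 and 105 at 0.5 h, 96.3 and 104 at 1.5 h, 110 and 92.4 at 3 h, 67.8 and 64.6 at 6 h, 76.9 and 74.1 at 24 h, 77.2 and 70.3 at 48 h, then 85.5 and 61.6 at 72 h. It was lower at 6 h (-0.57, SE 0.14, edgeR adjusted p = 0.00372). The 72 h value was -0.41 (SE 0.14, edgeR adjusted p = 0.0227), with no library from 6 h on above the lower 0 h library. The first 72 h library, at 85.5 CPM, lay close to that 0 h library, at 88.0 CPM. Complex II thereby went from 5.88 and 5.31% of all nuclear subunit reads at 0 h to 8.71 and 8.58% at 24 h.

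**Figure D4:**
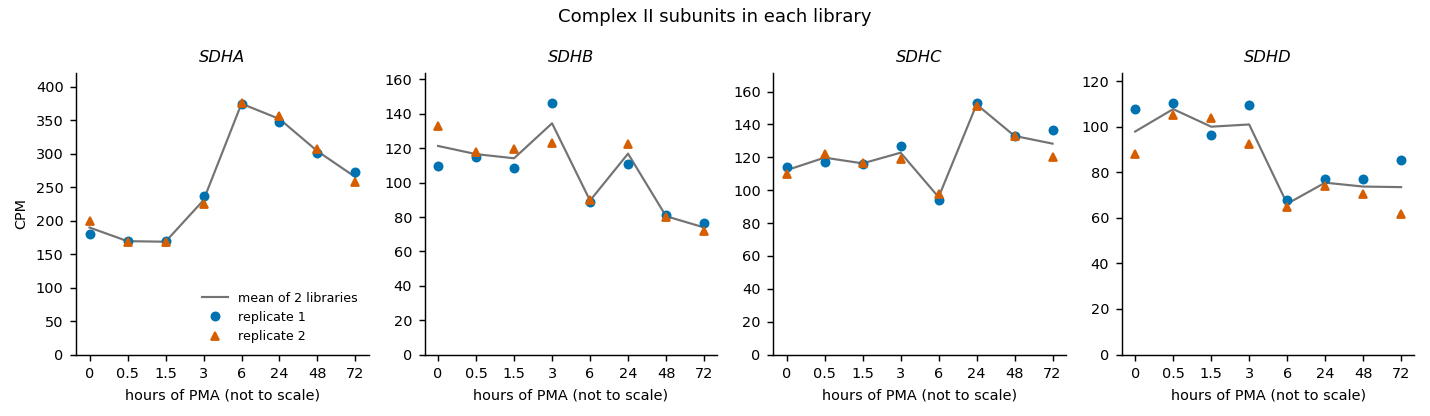
CPM of the 4 complex II subunits in each library against hours of PMA on an axis not to scale, with circles for replicate 1, triangles for replicate 2 and the line for their mean. SDHA goes from 180 and 200 CPM at 0 h to 375 and 375 CPM at 6 h, while SDHB, SDHC and SDHD are below their 0 h values at 6 h.

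Among the 9 complex III genes 6 were lower at 6 h and 4 at 72 h, with medians of -0.49 and -0.23, or 4 and 2 without the second 0 h library. The background over all genes was 29.4% lower at 6 h and 26.9% at 72 h. UQCRC2, a core protein, fell by 0.83 at 72 h (SE 0.08, edgeR adjusted p = 1.18e-06). UQCRFS1, the Rieske iron-sulphur protein and named after its values were seen, was lower at 6 h (-0.61, SE 0.10, edgeR adjusted p = 0.000163, or -0.48 without the second 0 h library) and measured 79.5 and 73.9 CPM at 72 h beside 75.9 and 90.0 at 0 h. UQCRH, the acidic hinge protein near cytochrome c1 (chr1:46303631-46316776), had the highest level per length of the nuclear members, a mean of 1311 TPM. It measured 353 and 390 CPM at 0 h, 464 and 346 at 3 h, 344 and 334 at 6 h, 199 and 205 at 24 h, 253 and 239 at 48 h, then 260 and 206 at 72 h. Its drop came between 6 and 24 h (-0.75, SE 0.13, edgeR adjusted p = 0.000359). The 24 h level was below 0 h with and without the second 0 h library (-0.88 and -0.80). Calls of UQCRH at 48 and 72 h were lost when trends in GC content and length were removed (-0.26 and -0.21). UQCRHL, its near-identical copy, had only 25 to 88 reads and is uncertain. UQCRB, a small subunit, measured 136 and 108 CPM at 0 h and 184 and 200 at 3 h (0.65, SE 0.14, edgeR adjusted p = 0.00228), and rose at 3 and 6 h also without the second 0 h library (0.49 and 0.41). CYC1, the catalytic cytochrome c1 that the symbol rule leaves out, measured 123 and 153 CPM at 0 h, 60.7 and 56.8 at 6 h, then 45.7 and 45.8 at 72 h (-1.59, SE 0.14, edgeR adjusted p = 3.44e-07, or -1.43 without the second 0 h library).

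Of the 15 tested nuclear genes of complex IV 5 were lower at 6 h, 7 at 24 h and 9 at 72 h (4, 5 and 6 without the second 0 h library), and from 6 to 24 h 7 fell and 1, COX7A2L, rose, while without the first or the second 6 h library 3 and 4 fell. The background over all genes was 29.4% lower at 6 h, 26.6% at 24 h and 26.9% at 72 h. From 6 to 24 h 25.8% of all genes fell and 30.8% rose. COX7C, a small subunit (chr5:86617904-86620962), measured 158 and 205 CPM at 0 h, 162 and 159 at 0.5 h, 164 and 150 at 1.5 h, 202 and 150 at 3 h, 169 and 155 at 6 h, 95.7 and 89.9 at 24 h, 102 and 88.1 at 48 h, then 105 and 74.1 at 72 h. All 6 libraries from 24 h on were below the 10 earlier ones. From 6 to 24 h it fell by 0.81 (SE 0.17, edgeR adjusted p = 0.00145). COX8A, another small subunit, measured 108 and 162 CPM at 0 h, 99.3 and 96.0 at 6 h, 70.9 and 68.7 at 24 h, then 59.0 and 61.3 at 72 h (-1.17, SE 0.18, edgeR adjusted p = 6.64e-05, or -0.85 without the second 0 h library). COX6C, COX7A2 and COX7B also fell from 6 to 24 h, by 0.44, 0.32 and 0.48. With trends in GC content and length removed the value of COX7A2 became 0.02.

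Beside COX4I2, COX6A2, COX7A1 and COX8C, which were at or near 0 reads, the isoform COX6B2, known from testis, measured 5.96 and 7.04 CPM at 0 h and 2.81 and 4.77 at 72 h (-0.78, SE 0.25, edgeR adjusted p = 0.0152, not called without the second 0 h library). Its widely expressed partner COX6B1 had 126 and 185 CPM at 0 h and 136 and 135 at 72 h, not called. COX4I1, also widely expressed, measured 263 and 301 CPM at 0 h and 218 and 179 at 72 h (-0.51, SE 0.13, edgeR adjusted p = 0.00413, or -0.41 without the second 0 h library). COX7A2L, which is known for joining complexes III and IV into supercomplexes, measured 121 and 112 CPM at 0 h, 124 and 107 at 3 h, 63.3 and 57.4 at 6 h, 72.3 and 72.8 at 24 h, 67.5 and 63.9 at 48 h, then 81.7 and 67.1 at 72 h. Every library from 6 h on was below all 8 earlier ones, and the step from 3 to 6 h was -0.94 (SE 0.10, edgeR adjusted p = 8.36e-06). NDUFA4, once listed with complex I and known as a complex IV subunit, rose at 24 h (0.40, SE 0.12, edgeR adjusted p = 0.0111), from 97.2 and 111 CPM at 0 h to 136 and 137. Its paralogue NDUFA4L2, known as a hypoxia-inducible gene, had 2.12 and 3.28 CPM at 0 h, 1.07 and 1.03 at 6 h, 1 and 2 reads at 24 h, which is under a floor of 3 reads, then 0.334 and 0.437 CPM at 72 h. Its log2 fold change at 72 h was -2.80 (edgeR) on 12 and 14 reads.

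Of the 20 genes of complex V 8 were lower and 2 higher at 6 h, and 12 lower and 1 higher at 72 h with a median of -0.50 (9 and 1, median -0.39, without the second 0 h library). The background over all genes was 29.4% lower and 27.8% higher at 6 h, and 26.9% lower and 31.7% higher at 72 h. Among the 12 lower at 72 h were the inhibitor ATP5IF1, the readthrough gene ATP5MF-PTCD1 and ATP5MGL. ATP5F1A, the alpha subunit of the catalytic head, measured 359 and 419 CPM at 0 h and 245 and 204 at 72 h (-0.79, SE 0.12, edgeR adjusted p = 5.53e-05, or -0.68 without the second 0 h library). ATP5F1B, the beta subunit, measured 896 and 969 CPM at 0 h and 725 and 613 at 72 h (-0.48, SE 0.12, edgeR adjusted p = 0.00411, or -0.42 without it). For the delta subunit ATP5F1D the 0 h libraries were far apart, at 54.8 and 104 CPM, beside 27 and 38.9 at 72 h. Its value of -1.27 at 72 h became -0.74 without the second 0 h library and remained called, and the calls at 24 and 48 h were lost.

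ATP5MC1, ATP5MC2 and ATP5MC3 encode the same mature proton-carrying c subunit. ATP5MC1 measured 34.8 and 51.2 CPM at 0 h, 25.2 and 26.3 at 6 h, then 17.9 and 18.2 at 72 h (-1.25, SE 0.15, edgeR adjusted p = 6.2e-06, or -0.95 without the second 0 h library). ATP5MC2 measured 190 and 253 CPM at 0 h, 149 and 165 at 6 h, then 92.1 and 115 at 72 h (-1.1, SE 0.15, edgeR adjusted p = 2.86e-05, or -0.88 without it). ATP5MC3, with 257 and 299 CPM at 0 h and 236 and 181 at 72 h, did not pass the test (-0.41, SE 0.20, edgeR adjusted p = 0.087). ATP5IF1, the inhibitor of the hydrolysing ATP synthase, measured 97.7 and 110 CPM at 0 h, 104 and 86.7 at 3 h, 49.8 and 51.5 at 6 h, 52.2 and 58.2 at 24 h, 62.0 and 67.0 at 48 h, then 61.8 and 61.5 at 72 h. It fell from 3 to 6 h by 0.91 (SE 0.10, edgeR adjusted p = 7.49e-06), and all 8 later libraries stayed below all 8 earlier ones.

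ATP5MK, a small subunit of the membrane part known as DAPIT (chr10:103389041-103396492), moved against its complex. It measured 60.1 and 52.4 CPM at 0 h, 57.1 and 68.2 at 0.5 h, 57.8 and 70.7 at 1.5 h, 78.4 and 76.6 at 3 h, 71.0 and 85.8 at 6 h, 93.9 and 111 at 24 h, 87.7 and 104 at 48 h, then 92.1 and 94.6 at 72 h. All libraries from 3 h on were above both 0 h libraries. The log2 fold change was 0.86 at 24 h (SE 0.14, edgeR adjusted p = 0.000115) and 0.73 at 72 h (edgeR adjusted p = 0.00043), or 0.77 and 0.64 without the second 0 h library, whereas at 3 and 6 h its values of 0.46 and 0.48 became 0.36 and 0.38 and were no longer called. ATP5PF and ATP5F1C, of the stalks, were higher at 24 h, at 0.38 and 0.31 (edgeR adjusted p = 0.0018 and 0.0194), and without the second 0 h library the value of ATP5F1C was 0.25, not called. Both had values of 0.10 at 72 h, not called.

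Against 0 h the 13 mitochondrial genes had positive medians up to 24 h, and at 48 h 5 were above 0 and 8 below. Their median log2 fold change was 0.11, 0.62, 0.62, 0.79, 0.52, -0.09 and 0.20 in the order of the 7 later time points. By edgeR 8 of 13 were called higher, all at 6 h, and none at any other time or lower at any time, and the unadjusted p was under 0.05 for 0, 3, 5, 11, 2, 0 and 0 genes in order of time. Among all genes 27.8% were called higher at 6 h by edgeR. DESeq2 called 4 of the 13 at 6 h and 0 at the other times. Without the second 0 h library none of the 8 was called (median 0.67), and without the second 6 h library none was either. Without the first 6 h library all 13 were called, and without the first 0 h library 3. Without the first 24 h library 5 were called at 24 h, and without the first 0 h library 1 each at 1.5, 3, 24 and 72 h. No mitochondrial gene was called between neighbouring time points, where the unadjusted p was under 0.05 for 1 gene from 0.5 to 1.5 h, 3 genes from 24 to 48 h and 0 genes in each of the other 4 steps.

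MT-CO1, the catalytic subunit of complex IV, had the most reads and measured 5345 and 4373 CPM at 0 h, 5917 and 4167 at 0.5 h, 6537 and 7428 at 1.5 h, 8436 and 6520 at 3 h, 6431 and 10352 at 6 h, 5816 and 8976 at 24 h, 3846 and 5971 at 48 h, then 7260 and 6192 at 72 h. Its log2 fold change at 6 h was 0.79 (SE 0.28, edgeR adjusted p = 0.0254), with both 6 h libraries above both 0 h libraries but far from each other. MT-ND6, the complex I subunit on the light strand, measured 637 and 410 CPM at 0 h, 821 and 693 at 0.5 h, 836 and 1251 at 1.5 h, 943 and 1202 at 3 h, 800 and 2072 at 6 h, 489 and 1016 at 24 h, 253 and 596 at 48 h, then 320 and 439 at 72 h. It had a log2 fold change of 1.46 at 6 h (SE 0.47, edgeR adjusted p = 0.0167) and of -0.46 at 72 h, not called. MT-ATP8 likewise had 1.46 at 6 h (SE 0.47, edgeR adjusted p = 0.0166), and MT-ND5, MT-ND4, MT-CYB, MT-ND3 and MT-CO3 had 0.95, 0.84, 0.78, 0.71 and 0.69. MT-ND2 missed the threshold at 6 h (0.83, edgeR adjusted p = 0.0508). The SE of these genes at 6 h, 0.27 to 0.47, exceeded the 0.08 to 0.14 of the complex II subunits.

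Within the mitochondrial reads some genes shifted relative to others. MT-ND2 made up 12.7 and 12.8% of the reads of the 13 genes at 0 h, 12.6 and 12.8% at 0.5 h, 12.3 and 12.7% at 1.5 h, 11.4 and 12.5% at 3 h, 12.3 and 13.3% at 6 h, 10.8 and 11.4% at 24 h, 9.91 and 10.7% at 48 h, then 8.68 and 9.71% at 72 h. MT-ND4 made up 12.8 and 12.2% at 0 h, 12.7 and 12.8% at 6 h, 13.6 and 13.9% at 24 h, 13.9 and 14.3% at 48 h, then 15.2 and 15.3% at 72 h. Both are complex I subunits from the heavy strand, and their shares at 24, 48 and 72 h did not overlap those at 0 h, in opposite directions. MT-ND6 made up 2.52 and 1.97% at 0 h, 2.80 and 3.98% at 6 h, then 1.08 and 1.59% at 72 h, and MT-CYB went from 5.39 and 5.98% at 0 h to 6.92 and 6.95% at 72 h. In a fit with libraries scaled to the summed reads of the 13 genes, added after the data were seen, edgeR called none of the 13 at any time. There MT-ND2 had -0.47 at 72 h with an SE of 0.34, and MT-ND4 had 0.29 with an SE of 0.33. With SEs of this size that fit could hardly call such shifts, so it cannot decide about them. The shares are given as values only. Reads of nuclear pseudogene copies of these genes amounted to 1.23 to 1.48% of the mitochondrial reads, and of the 48 copies tested 13 were higher and 0 lower at 6 h, or 6 and 0 without the second 0 h library. Of all genes 27.8% were called higher at 6 h, a share close to that of these copies.

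**Figure D5:**
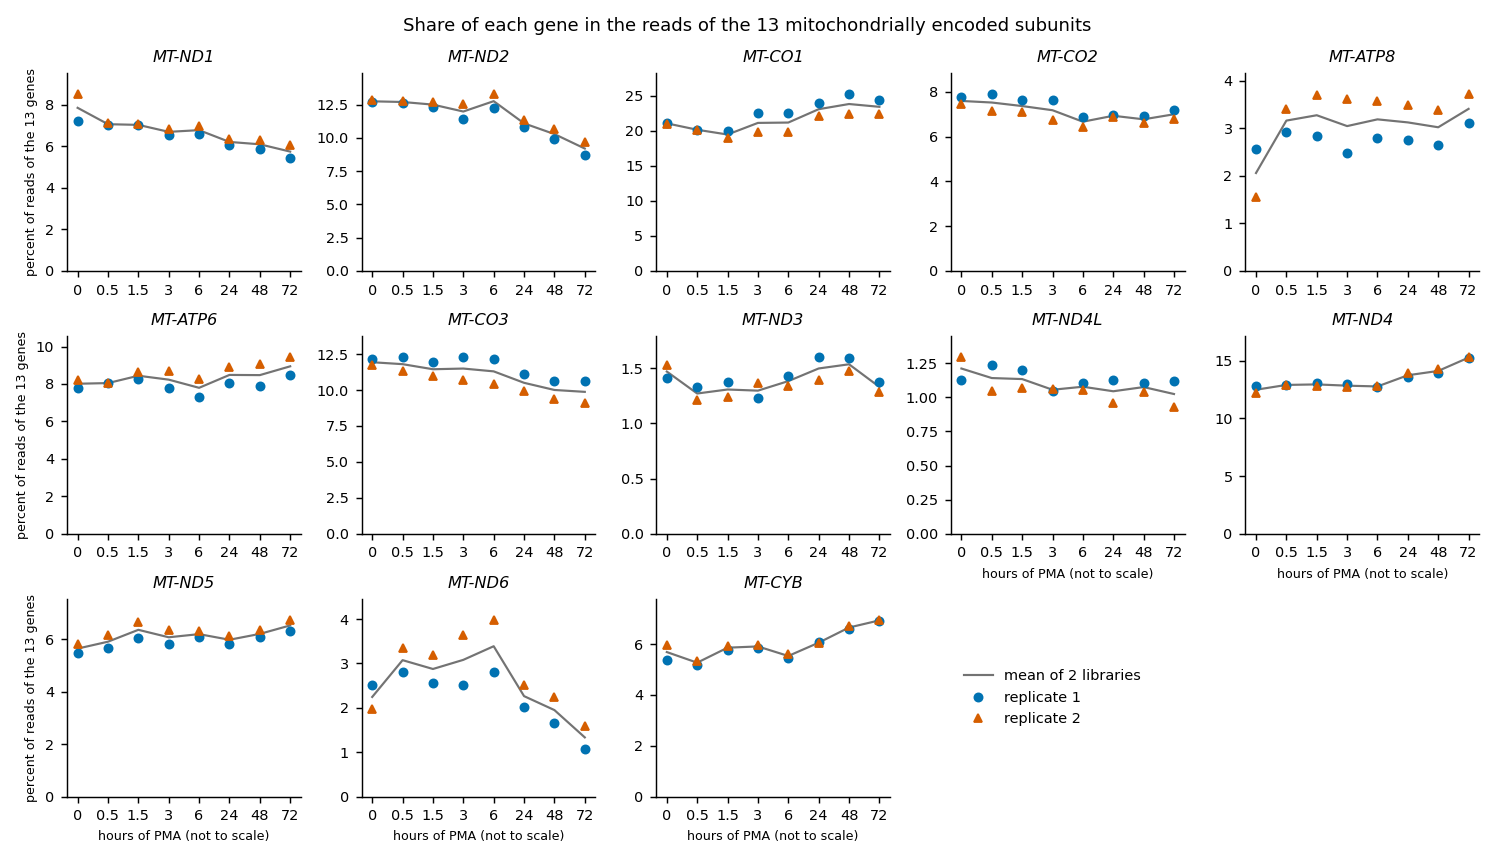
Share of each of the 13 mitochondrially encoded genes in their summed reads, in percent, against hours of PMA on an axis not to scale, with circles for replicate 1, triangles for replicate 2 and the line for their mean. The share of MT-ND2 goes from 12.7 and 12.8% at 0 h to 8.68 and 9.71% at 72 h, and that of MT-ND4 from 12.8 and 12.2% to 15.2 and 15.3%.

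Genes that build or regulate the complexes were read from lists chosen with earlier results of these data known. All genes together give the background: 22.1% fell and 19.0% rose from 3 to 6 h, 25.8% fell and 30.8% rose from 6 to 24 h, and 26.9% were lower and 31.7% higher at 72 h. Of 47 assembly factors 22 fell and 3 rose from 3 to 6 h, and 21 rose and 2 fell from 6 to 24 h. At 72 h 31 were lower and 1 higher than at 0 h, with a median of -0.48, or 26 and 2 without the second 0 h library. UQCC3, an assembly factor of complex III, measured 14.6 and 20.2 CPM at 0 h, 3.31 and 3.16 at 6 h, then 4.16 and 5.20 at 72 h (72 h: -1.90, SE 0.17, edgeR adjusted p = 4.81e-07). Of 78 mitochondrial ribosomal proteins, which translate the 13 mitochondrial messages, 38 fell and 5 rose from 3 to 6 h, and 50 rose and 1 fell from 6 to 24 h. At 72 h 50 of the 78 were lower and 7 higher (38 and 8 without the second 0 h library), and MRPL16 was lowest relative to 0 h, at 25.9 and 27.3 CPM beside 111 and 128 (-2.16, SE 0.13, edgeR adjusted p = 7.91e-09).

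For mitochondrial transcription and RNA handling, 10 of 25 genes were lower and 4 higher at 6 h, then 11 and 6 at 72 h (9 and 2, and 11 and 1, without the second 0 h library). Of all genes 29.4% were lower and 27.8% higher at 6 h, and 26.9% lower and 31.7% higher by 72 h. POLRMT, the mitochondrial RNA polymerase, measured 95.7 and 118 CPM at 0 h, 47.5 and 44.2 at 6 h, then 82.9 and 98.7 at 24 h, with -1.22 at 6 h (SE 0.16, edgeR adjusted p = 1.51e-05). TFB1M, which methylates the mitochondrial ribosomal RNA, measured 21.2 and 21.8 CPM at 0 h, 7.10 and 7.59 at 3 h, then 10.4 and 10.6 at 72 h (-1.03, SE 0.10, edgeR adjusted p = 1.39e-06). TFAM, the packaging and transcription factor of mitochondrial DNA, measured 145 and 101 CPM at 0 h and 109 and 74.1 at 72 h (-0.43, SE 0.17, edgeR adjusted p = 0.0441). Its 72 h libraries overlapped those of 0 h. The second 0 h library was the lower of the 2, so leaving it out enlarges the fall. 

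Among 9 genes of mitochondrial DNA replication 3 were lower and 1 higher at 6 h, with and without the second 0 h library, beside 29.4% and 27.8% of all genes. TOP1MT, the mitochondrial topoisomerase, went from 56.2 and 76.4 CPM at 0 h to 20.3 and 23.4 at 72 h (-1.60, SE 0.15, edgeR adjusted p = 5.27e-07). Of 13 citric acid cycle genes 7 were lower and 2 higher at 72 h (9 and 2 without the second 0 h library), and CS, citrate synthase, went from 358 and 402 CPM to 188 and 179 (-1.05, SE 0.10, edgeR adjusted p = 5.88e-07). Of 8 nuclear regulators of respiratory genes 5 were higher and 2 lower at 6 h (4 and 2 without the second 0 h library). GABPB1, a subunit of the ETS factor GABP, measured 37.5 and 28.4 CPM at 0 h, 83.3 and 87.7 at 6 h, then 46.4 and 48.1 at 24 h (6 h: 1.37, SE 0.12, edgeR adjusted p = 2.55e-07). NRF1 measured 19.1 and 19.9 CPM at 0 h, 33.2 and 37.6 at 6 h, then 22.1 and 20.7 at 24 h (6 h: 0.86, SE 0.10, edgeR adjusted p = 7.83e-06). PPARGC1B, a coactivator of respiratory genes, had the reverse course, with 67.2 and 77.9 CPM at 0 h, 31.5 and 33.9 at 6 h, then 152 and 159 at 24 h. From 6 to 24 h PPARGC1B rose by 2.25 (SE 0.09, edgeR adjusted p = 6.34e-10). Another of the 8 regulators, not described here, had the highest log2 fold changes of this list, 4.45 at 6 h and 7.09 at 72 h. Without the second 0 h library the log2 fold changes of these list genes kept their calls: UQCC3 had -1.65, MRPL16 -2.06, TFB1M -1.01, TFAM -0.66, TOP1MT -1.37 and CS -0.97 at 72 h. At 6 h POLRMT then had -1.06, GABPB1 1.19 and NRF1 0.89.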

How the data were processed

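RNA of K562 cells at 8 time points of 25 nM PMA was sequenced in 16 libraries, 2 per time point. The deposited tables, with the columns that salmon writes, hold an estimated count and a TPM value per transcript for 177456 transcripts, per the file headers. The submitters' processing notes name salmon, HISAT2 2.1.0 and Trim Galore 0.4.3 and list both a GRCh37 and a GRCh38 build (hg19 and hg38), and which build or strand setting the counting used is not given in the sources used here. Estimated counts were not normalized by the authors, and TPM values, per the file headers, are relative to all transcripts of a library after division by effective length.

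Transcripts were assigned to genes with GENCODE 29 (GRCh38). Of them 167027 (94.1%) matched, in 35052 genes, and unmatched ones carried 3.01 to 3.75% of a library's reads. Counts were summed per gene and rounded. edgeR 4.0.16 (R 4.3.3) was run with TMM factors of 0.854 to 1.139, filterByExpr (17559 genes kept), 1 fit of all 16 libraries and the quasi-likelihood F-test, with Benjamini-Hochberg adjustment over all genes of a comparison, a threshold of 0.05 and a prior count of 0.125. The fit had 8 residual degrees of freedom and 5.28 from the prior, and a biological coefficient of variation of 0.123. CPM is relative to the TMM-scaled library. With 2 libraries against 2, an exact permutation test cannot pass the threshold for a single gene. DESeq2 1.42.0 and the other alternatives are in the closing section.

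Members and lists were chosen with earlier results of these data known. A rule chose all mitochondrial and complex II subunits, the 3 nuclear members with the highest TPM, isoform families and ATP5IF1. It also chose the 2 largest called rises and falls against 0 h at each time with a mean of at least 5 TPM and non-overlapping libraries. Members called against their complex at 24 or 72 h were added, and from each list the largest called change at 24 or 72 h. Some genes chosen by the rule are not described, among them UQCR11 (falls at 3 and 6 h), NDUFA11 (fall at 3 h), NDUFA12 and COX6A1. Other genes named in the text (NDUFA8, NDUFS3, UQCRFS1, UQCRC2, UQCRHL, COX6C, COX7B, ATP5F1A, POLRMT, TFAM, GABPB1, NRF1 and members given only in lists of those called) were picked after their values were seen. The values of 1 tested complex I subunit, which is in the counts, are not reported here. The mitochondrial ribosomal RNA genes are not analysed here.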

Additional observations from a re-analysis of the deposited data

How the results depend on the processing

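Counts of nuclear subunits called lower against 0 h moved by over 1.5 times under these settings, and the cause was not tested. No share over all genes is given for these settings. At 0.5 h there were 15 with no filter and 2 with DESeq2 (0 with the main settings), at 1.5 h 30 with total counts, 23 with no filter, 4 with counts from TPM, 5 with GC and length trends removed, 17 with a replicate block and the GC trend removed, 3 with the 4 libraries only and 1 at an adjusted p under 0.01 (main 9), and at 3 h 38, 15, 5, 3 and 4 with total counts, no filter, counts from TPM, 4 libraries only and an adjusted p under 0.01 (main 9). At 6 h there were 69 with total counts (main 39), at 24 h 54 with total counts, 44 with the GC trend removed and 48 with the block and GC (main 28), at 48 h 23 at an adjusted p under 0.01 (main 35), and at 72 h 28 with GC and length removed (main 45). Mitochondrial subunits called higher numbered 2, 13, 13, 13, 9, 1 and 6 with no filter, in the order of time. With the 4 libraries only there were 5 at 1.5 h, 7 at 3 h and 4 at 72 h, and with GC and length removed 3 at 24 h and 4 at 72 h. At 6 h (main 8) there were 0 with total counts or at an adjusted p under 0.01, and 4 with the GC trend removed, with the block and GC, or with DESeq2. Nuclear subunits that fell from 3 to 6 h numbered 19 at an adjusted p under 0.01 (main 30), those that rose to 24 h 14 (main 25), and those that did both 9, 25 with total counts and 24 with the block and GC (main 14, all 14 shared under these last 2 settings).

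With 1 library left out, lower nuclear subunits numbered 0 to 27, 0 to 31, 2 to 20, 30 to 45, 20 to 41, 19 to 43 and 29 to 49 in the order of the 7 later time points. Falls from 3 to 6 h ranged from 17 to 42, rises from 6 to 24 h from 13 to 27, and genes with both from 7 to 21. Mitochondrial subunits called higher numbered at most 1 for 1.5, 3 and 72 h, 0 to 13 for 6 h and 0 to 5 for 24 h, and the change of the log2 ratio for 6 h from 0.55 to 1.42 and for 48 h from -0.33 to 0.47. A fit that leaves 1 library at a time point assumes that it varies like the others. No share over all genes is given for such fits. Of 199 called comparisons of named genes, 49 were lost without the second 0 h library. Signs turned for NDUFS1 with total counts (-0.00418 at 3 h, -0.000102 at 24 h) and, with GC and length removed, for ATP5MF (0.12 at 48 h, 0.21 at 72 h) and COX7A2 (0.21 at 72 h, 0.0152 from 6 to 24 h).

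The labels tie the replicate numbers to no culture or batch. Within each time point the difference between replicate 1 and replicate 2 was taken for each gene, and these differences were correlated between time points. They correlated over 0.1 in 24 of 28 pairs of time points, and not in the other 4 (r from -0.30 to 0.60). Length minus effective length also separates the numbers outside 0 h. Most time points thus shared a difference between the replicate numbers. The main fit leaves it out because a correlation over 0.1 was required in every pair, and a block is given as an alternative. With a replicate block 44 nuclear subunits were lower and 6 higher at 6 h and 47 and 5 at 72 h, and 1 of the 199 named calls, MT-CO3 at 6 h, was lost. The SE of mitochondrial genes at 6 h, 0.27 to 0.47 with 2 libraries a time point, limits what could be called.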
